A study of Mus musculus with 14 samples.

Results

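The genes described here build bone or mark the cells that do so: the transcription factors Runx2, Sp7, Dlx5 and Dlx3, the mineralisation enzymes Alpl, Phospho1 and Smpd3, the parathyroid hormone receptor Pth1r and the adhesion molecule Cdh11. They were taken by name, as every probe set whose platform gene symbol is exactly one of these 9, and not by a cut on their values. The list itself was chosen with earlier results of these data known. Of the 9 genes, 7 had probe sets of their own, 11 of the 45101 on the array, and all 7 passed the filter that dropped the dimmest probe sets. No probe set carried Runx2 alone, and the 1 probe set listed for Phospho1 was shared with Zfp652, so neither gene has a value here.

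Bone forms when mesenchymal precursors become osteoblasts, a step that needs Runx2 and then Sp7 (also called osterix), with the homeobox factors Dlx5 and Dlx3 acting in the same programme. Mature osteoblasts lay down collagen and let mineral grow in it, for which alkaline phosphatase (Alpl) removes the inhibitor pyrophosphate, and Smpd3 and Phospho1 release phosphate from membrane lipids in matrix vesicles. Granulocyte colony-stimulating factor (G-CSF) makes the marrow produce neutrophils and mobilises haematopoietic stem cells, and it is known to suppress osteoblasts.

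RNA from cells sorted out of mouse bone marrow was hybridised to 14 Affymetrix arrays in 4 groups. The mice carried pOBcol2.3-GFP, a transgene whose GFP is driven by a piece of the collagen I promoter active in osteoblasts; they were on the C57BL/6J background, were listed as wild type and were 6 to 8 weeks old. Osteoblasts were the GFP+ cells negative for CD45, ter119 and CD31 (3 arrays untreated, 3 after G-CSF). Endothelial cells were the CD31+ cells negative for CD45, ter119 and GFP (4 arrays untreated, 4 after G-CSF). G-CSF was given under the skin at 250 ug/kg for 5 days per the titles, whereas the treatment protocol listed for the untreated arrays says 7 days, with vehicle alone as the control. All groups went through serial collagenase digestion, and nothing in the labels ties each replicate to an animal of its own, so p-values measure the spread between these samples, which may be technical.

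Signals are the deposited linear intensities, and changes are differences in log2(intensity + 16), a scale on which dim genes change less than they do in signal. The error after ± is the SD for a group mean and the SE for a change. A gene is called where its adjusted p (limma, Benjamini-Hochberg over all 13453 genes) is under 0.05. Same-numbered untreated and G-CSF arrays deviated together, so a fit with the replicate number as a block is given beside a result where it changes the call. The sorts matched their labels in part. All 10 measured endothelial markers were lower in the untreated osteoblast sort than in the CD31+ sort. By contrast, 0 of 7 measured osteoblast matrix genes (Col1a1, Ibsp and others) were called different between the untreated sorts. The other genes in that list of 10, Bglap, Bglap2 and Spp1, had no value here. Untreated group means of Col1a1, Col1a2 and Sparc lay between 15.33 and 16.02 in both sorts. Untreated osteoblast replicate 2 stood apart by genes of blood cells, with a mean of 14.13 over 10 neutrophil markers against 11.52 and 11.18 in the other untreated osteoblast arrays. Untreated CD31+ replicate 1 stood apart by muscle genes, with a mean of 13.86 over 7 markers against a median of 8.92 in its group. These are bulk samples, in which fewer cells of a type and less RNA per cell cannot be told apart.

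After G-CSF, 3 of the 7 bone genes were called lower in the CD31+ sort, where 1.14% of all genes were. There Alpl, Pth1r and Cdh11 fell 3.01-fold, 4.55-fold and 4.94-fold. With the replicate block Sp7, Dlx5 and Smpd3 were called lower as well, where 3.87% of all genes were, while Dlx3 was called in neither fit. Without the block 0 of the 7 were called after median centring, or in 5 of the 8 fits that left out a single CD31+ array. The 7 genes were lower in all 4 replicate pairs, with a median change of -1.75 against -0.05 over all genes. The share of all genes lower in all 4 pairs was not counted, so the pairs are a description only. In the osteoblast sort 0 of the 7 genes passed the test, as 0.23% of all genes did in either direction. The median change of the 7 there was -0.53 against -0.04 over all genes.

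**Figure D1:**
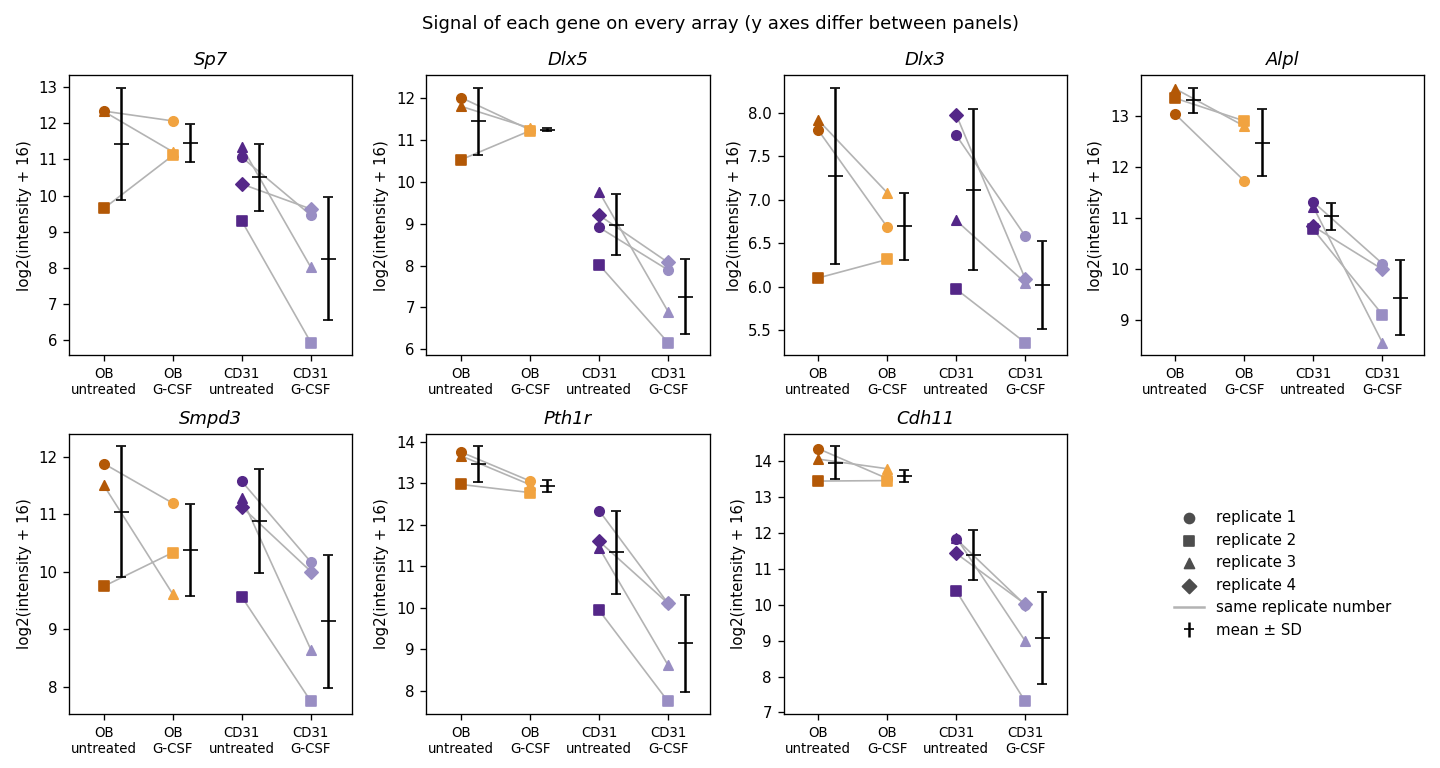
Signal of the 7 measured genes on each of the 14 arrays, as log2 of intensity plus 16, by sort (OB, osteoblast; CD31, endothelial) and treatment, with grey lines joining arrays that share a replicate number and black bars giving mean ± SD. Each line of the CD31+ sort slopes down, and replicate 2 is lowest in both CD31+ groups for every gene except Alpl, where it is lowest among the untreated arrays and replicate 3 is lowest after G-CSF.

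Sp7 (chr15:102356603-102367035 on GRCm38.p6 in RefSeq) encodes the zinc finger factor osterix. Its signal in untreated osteoblasts was 5144, 783 and 5108 in replicates 1, 2 and 3, and after G-CSF it was 4257, 2192 and 2347. In CD31+ cells it was 2113, 610, 2578 and 1259 in untreated replicates 1 to 4, and 685, 45.1, 242 and 774 after G-CSF. The low untreated osteoblast array is the one that stood apart in its group by blood cell genes. The 2 CD31+ groups overlapped, since G-CSF replicates 1 and 4 exceeded untreated replicate 2. In the CD31+ sort Sp7 had a log2 change of -2.24 ± 0.76 (adjusted p = 0.166 in limma, and 0.0282 with the replicate block). In the osteoblast sort the change was 0.03 ± 0.88, and without untreated replicate 2 it was -0.87. Its group means ran from 11.46 ± 0.52 (G-CSF osteoblasts) and 11.43 ± 1.55 (untreated osteoblasts) to 10.50 ± 0.92 and 8.26 ± 1.71 (untreated and G-CSF CD31+ cells).

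Dlx5 (chr6:6877801-6882068) is a homeobox factor that acts early in the osteoblast programme. Signals were 4142, 1466 and 3581 in untreated osteoblasts and 2419, 2382 and 2491 after G-CSF. The 3 treated arrays lay close together, inside the range of the untreated ones. In CD31+ cells the signal was 466, 244, 855 and 574 before and 222, 55.2, 103 and 254 after treatment. The groups overlapped by a single array, because untreated replicate 2 lay below G-CSF replicate 4. The log2 change in CD31+ cells was -1.72 ± 0.44 (adjusted p = 0.0668 in limma, and 0.0149 with the replicate block), and in osteoblasts it was -0.20 ± 0.51.

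Dlx3 (chr11:95120117-95125296), a homeobox factor of bone, tooth and hair, was the gene with the weakest change in CD31+ cells. Signals were 207, 52.6 and 226 in untreated and 87.0, 63.5 and 119 in G-CSF osteoblasts. In CD31+ cells they were 198, 46.7, 92.5 and 236 untreated and 79.8, 24.9, 50.0 and 52.1 after G-CSF. Both pairs of groups overlapped. The log2 change was -1.10 ± 0.48 in CD31+ cells (adjusted p = 0.326 in limma, and 0.0809 with the block) and -0.58 ± 0.55 in osteoblasts. A second Dlx3 probe set read between 2.1 and 77.0 on all arrays and was among the dimmest probe sets, so no direction is read from it.

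Alpl encodes tissue-nonspecific alkaline phosphatase, and its gene lies on the minus strand at chr4:137741731-137796384. It is 1 of the 2 genes called lower in CD31+ cells for which RefSeq promoter windows were given here, and its upstream sequence is shown for that reason. The 250 bases before its outermost annotated start (GRCm38.p6, minus strand, chr4:137796385-137796634) are printed 5′ to 3′, with matches to the GC box in capitals. The GC box, bound by Sp family zinc finger factors, was searched as GGGCGG and as its reverse complement CCGCCC, and 32.7% of 32851 RefSeq promoter windows of this length hold at least 1 match.
Alpl upstream window: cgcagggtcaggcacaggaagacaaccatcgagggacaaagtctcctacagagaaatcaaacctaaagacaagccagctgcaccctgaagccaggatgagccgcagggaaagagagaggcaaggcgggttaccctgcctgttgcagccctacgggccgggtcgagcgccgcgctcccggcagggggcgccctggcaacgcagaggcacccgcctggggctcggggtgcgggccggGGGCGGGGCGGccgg
The 2 matches overlap, and they begin 15 and 10 bases before the start. The window upstream of the other annotated Alpl start (chr4:137766476-137766725) had no match. Neither Alpl window held the RUNX core TGTGGT (or ACCACA), found in 14% of all windows, or the homeodomain core TAATTA, found in 4.84%. A match describes letters only, and its absence says nothing about any factor.

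Alpl was the most uniform of these genes among untreated arrays. Its signal in untreated osteoblasts was 8337, 10361 and 11773, and after G-CSF it was 3369, 7610 and 7091. The groups did not overlap, every pair was lower, and the log2 change was -0.83 ± 0.38 (adjusted p = 0.551, unadjusted p = 0.0475, limma). A separation of this kind, lower with no overlap, was seen in 5.69% of all genes in the osteoblast sort. In CD31+ cells the signal was 2526, 1738, 2360 and 1812 untreated and 1088, 538, 363 and 1006 after G-CSF, again with no overlap. There Alpl fell by 1.59 ± 0.33 on the log2 scale (adjusted p = 0.0321, limma). Its mean was 13.30 ± 0.25 in untreated osteoblasts, 12.47 ± 0.65 after G-CSF, 11.03 ± 0.27 in untreated CD31+ cells and 9.45 ± 0.74 after G-CSF.

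Smpd3 (chr8:106252548-106337965), the neutral sphingomyelinase that yields phosphocholine in mineralising cells, was read by 3 probe sets. The brightest gave 3758, 843 and 2886 in untreated osteoblasts and 2324, 1275 and 764 after G-CSF. The same probe set gave 3027, 738, 2468 and 2219 in untreated CD31+ cells and 1134, 198, 383 and 1010 after G-CSF. Overlap in the CD31+ sort again came from untreated replicate 2, which was below G-CSF replicates 1 and 4. Its log2 change there was -1.75 ± 0.60 (adjusted p = 0.177 in limma, and 0.0209 with the block), and the other Smpd3 probe sets had changes of -1.56 ± 0.57 and -1.76 ± 0.62. In osteoblasts the change was -0.67 ± 0.70, lower in 2 of 3 pairs.

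Pth1r (gene on the minus strand, chr9:110722085-110747145) is the receptor through which parathyroid hormone acts on osteoblasts. RefSeq windows precede 3 annotated starts, and 2 of them, both inside the annotated span of the gene, hold GC boxes and are printed as for Alpl. The first window lies at chr9:110743687-110743936 and the second at chr9:110742611-110742860, both on GRCm38.p6 and the minus strand.
Pth1r window 1: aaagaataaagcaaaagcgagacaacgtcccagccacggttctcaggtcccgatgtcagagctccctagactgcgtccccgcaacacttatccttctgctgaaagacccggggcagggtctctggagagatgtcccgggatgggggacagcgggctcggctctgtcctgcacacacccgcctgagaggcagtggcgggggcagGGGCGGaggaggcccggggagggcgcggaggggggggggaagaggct
Pth1r window 2: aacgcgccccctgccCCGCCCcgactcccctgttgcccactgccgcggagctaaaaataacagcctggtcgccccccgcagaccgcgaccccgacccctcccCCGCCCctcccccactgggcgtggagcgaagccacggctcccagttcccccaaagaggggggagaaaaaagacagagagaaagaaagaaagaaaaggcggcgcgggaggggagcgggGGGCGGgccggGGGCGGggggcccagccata
Window 1 holds 1 match and window 2 holds 4, of which 2 are on each strand. The window at the outermost start (chr9:110747146-110747395) had none, and no Pth1r window held the RUNX or homeodomain core.

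The Pth1r signal in untreated osteoblasts was 13731, 7991 and 12899, and after G-CSF it was 8467, 6978 and 7961. Each pair was lower, and the log2 change was -0.53 ± 0.60 (adjusted p = 0.892, limma). In CD31+ cells the signal was 5170, 967, 2770 and 3093 untreated and 1085, 199, 377 and 1086 after G-CSF. The 4 pairs changed by -2.82 to -1.50, although the low untreated replicate 2 lay inside the G-CSF range. Pth1r fell by 2.19 ± 0.52 on the log2 scale (adjusted p = 0.0496, limma).

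Cdh11 (chr8:102632095-102785493) encodes cadherin-11, the adhesion molecule of osteoblasts and other mesenchymal cells. Its brighter probe set gave 20957, 11184 and 17105 in untreated osteoblasts and 11747, 11288 and 14198 after G-CSF. In CD31+ cells the values were 3644, 1326, 3745 and 2751 untreated and 1006, 142, 493 and 1023 after G-CSF, with no overlap. Cdh11 fell by 2.31 ± 0.49 on the log2 scale (adjusted p = 0.0361, limma), or 4.94-fold. Its second probe set gave a change of -1.98 ± 0.47, also with no overlap. In osteoblasts the changes of the 2 probe sets were -0.36 ± 0.57 and 0.04 ± 0.54.

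In all, 3 of the 7 genes were called lower in CD31+ cells after G-CSF, where 1.14% of all genes were, and 6 of 7 with the replicate block, where 3.87% were. Groups did not overlap for Alpl and Cdh11, a separation that 5.62% of all genes showed in the lower direction. In the unblocked fit 0 of the 7 genes were called without untreated CD31+ replicate 1, 3 or 4 or without G-CSF CD31+ replicate 2 or 3, and 4 were called without untreated replicate 2. Over the 5 fits with no call the log2 change was -1.65 to -1.30 for Alpl, -2.15 to -1.72 for Pth1r and -2.29 to -1.71 for Cdh11. With the block, Alpl, Pth1r and Cdh11 were called whichever CD31+ pair was left out, whereas Sp7 and Smpd3 lost the call in 3 of 4 such fits (all but the one without pair 4) and Dlx5 in 2 of 4 (without pair 2 or 3). Without the 2 arrays that stood apart in their own groups by genes of other cell types, 0 of 7 were called in the unblocked fit. The log2 changes were then -1.50 for Alpl (adjusted p = 0.0627, limma), -1.85 for Pth1r (0.0984) and -2.15 for Cdh11 (0.0635). Centring each array on its median moved every CD31+ change up by 0.18, and then 0 of 7 were called without the block, with Cdh11 at -2.12 (adjusted p = 0.0502), and 6 of 7 with it. Over all genes that centring changed the calls from 61 higher and 154 lower to 83 higher and 56 lower. The GAPDH 3′ to 5′ ratio, a sign of RNA quality, was 20.9 in untreated CD31+ replicate 1 and between 8.95 and 13.5 in the other CD31+ arrays. With this ratio as a covariate 1 of 7 genes was called in CD31+ cells. The log2 changes were then -1.41 for Alpl (adjusted p = 0.0338, limma), -2.10 for Pth1r (0.0907) and -2.28 for Cdh11 (0.0637). High ratios were not limited to that array. In osteoblast replicates 1, 2 and 3 the GAPDH ratio was 8.426, 12.3 and 12.96 untreated, and 5.878, 20.76 and 18.43 after G-CSF. The same ratio for actin was 11.03 in untreated and 10.49 in G-CSF osteoblast replicate 3, and between 2.624 and 6.566 on all other arrays.

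**Figure D2:**
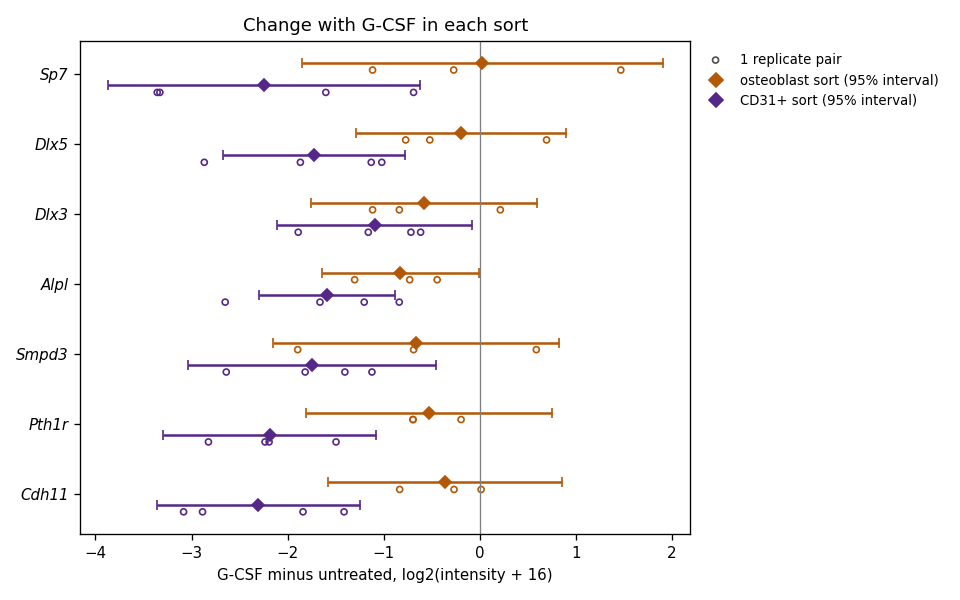
Change with G-CSF for each gene, as the difference in log2 of intensity plus 16, with the estimate and its 95% interval from limma (diamonds and bars) and the change of each replicate pair (open circles). All 4 pairs of the CD31+ sort lie below 0 for every gene, while the pairs of the osteoblast sort fall on both sides of 0 for 5 of the 7 genes.

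In osteoblasts 0 of 7 genes were called with G-CSF, where 0.23% of all genes were called in either direction. By limma 1 of the 7, Alpl, had an unadjusted p under 0.05, as did 1191 of the 13453 genes. With the replicate block Alpl and Pth1r did, as did 1774 of all genes, and 0 of the 7 were called, beside 45 genes higher and 19 lower over all. Alpl and Pth1r were lower in all 3 pairs, and the other 5 genes in 2 of 3, the exception being replicate 2 each time. For these 5 genes untreated replicate 2 held the lowest untreated signal. How many of all genes were lower in all 3 osteoblast pairs was not counted, so these directions are a description only. Markers of other cells differed between these arrays too. The mean of 4 erythroid markers lay between 8.28 and 11.05 untreated and between 5.92 and 7.87 after G-CSF, and that of 10 neutrophil markers between 11.18 and 14.13 and between 13.27 and 14.11. For 6 B lineage markers the ranges were 6.50 to 9.85 and 6.18 to 6.43. In the unblocked fit 0 members of these 3 lists were called. With the replicate block 1 neutrophil marker was called higher and 1 erythroid marker lower, where 0.334% and 0.141% of all genes were. Of 4 adipocyte and reticular markers (12.47 to 12.99 and 11.84 to 11.95) 1, Adipoq, was called lower. For 5 chondrocyte markers the ranges were 8.43 to 9.10 and 7.70 to 8.51, with 0 called and 1 lower with the block (0.141% of all genes were). For 6 macrophage and osteoclast markers they were 9.08 to 11.11 and 10.68 to 11.29, with 0 called in either fit. The part of these other cells in the osteoblast values was not tested.

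The difference between the 2 changes was tested directly. It was 1.94 ± 0.75 for Cdh11 (adjusted p = 0.947, limma), 1.66 ± 0.79 for Pth1r and 1.52 ± 0.68 for Dlx5, each positive because the CD31+ change was the more negative. It was called for 0 of the 7 genes, and for 0% of all genes. Unadjusted p was under 0.05 for Cdh11 and Dlx5, as for 622 of all genes. With the block the adjusted p was 0.112 for Pth1r and 0.147 for Cdh11. The 95% interval of the difference, not adjusted for the number of genes, was 0.33 to 3.55 for Cdh11 and 0.08 to 2.97 for Dlx5. It was -0.03 to 3.35 for Pth1r, -0.21 to 4.75 for Sp7 and -0.32 to 1.84 for Alpl. For Smpd3 it was -0.89 to 3.05 and for Dlx3, with the smallest difference (0.52), -1.04 to 2.07.

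The sorts themselves differed for some of the genes. In untreated mice 4 of 7, Dlx5, Alpl, Pth1r and Cdh11, were called higher in osteoblasts than in CD31+ cells, where 13.6% of all genes were. These 4 also showed no overlap between the sorts, as did 16.7% of all genes in that direction. Dlx5 was 5.58-fold higher (log2 difference 2.48 ± 0.48), Cdh11 5.95-fold (2.57 ± 0.53), Alpl 4.80-fold (2.26 ± 0.36) and Pth1r 4.36-fold (2.13 ± 0.56). Their adjusted p ranged from 0.000266 to 0.0111 (limma). Over all genes 1831 were higher and 1722 lower, or 1239 and 2575 after median centring, under which 4 of the 7 genes were again called. Sp7 (0.93 ± 0.82), Dlx3 (0.16 ± 0.51) and Smpd3 (0.16 ± 0.65) were not called. The untreated CD31+ sort carried Sp7 at 610 to 2578 and Smpd3 at 738 to 3027, ranges that overlapped those of the osteoblast sort. Of 7 fibroblast and tendon markers 5 were also called higher in untreated osteoblasts, with means of 12.50 to 12.69 against 8.79 to 9.35 in CD31+ cells, beside the 0 of 7 for osteoblast matrix genes. Their part in the difference between sorts was not tested. Deposited values had more than 1 decimal on osteoblast replicates 2 and 3 of both treatments and on no other array. This format goes largely with the sort, and what it marks is not known here.

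After G-CSF 5 of 7 genes were called higher in osteoblasts, where 17.5% of all genes were, and the same 5 showed no overlap, as did 21.4% of all genes. Cdh11 was 22.9-fold higher (log2 difference 4.51 ± 0.53), Dlx5 16.01-fold (4.00 ± 0.48), Pth1r 13.8-fold (3.78 ± 0.56), Sp7 9.21-fold (3.20 ± 0.82) and Alpl 8.15-fold (3.03 ± 0.36). Dlx3 (0.68 ± 0.51) and Smpd3 (1.24 ± 0.65) were not called. Over all genes 2351 were higher and 1936 lower, or 1452 and 3974 after median centring, with 5 of the 7 genes called there too. Fibroblast and tendon markers were called higher in 7 of 7 (12.48 to 13.35 against 7.12 to 9.01) and osteoblast matrix genes in 5 of 7. This comparison shares its arrays with the G-CSF comparisons above, so it is not separate evidence.

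**Figure D3:**
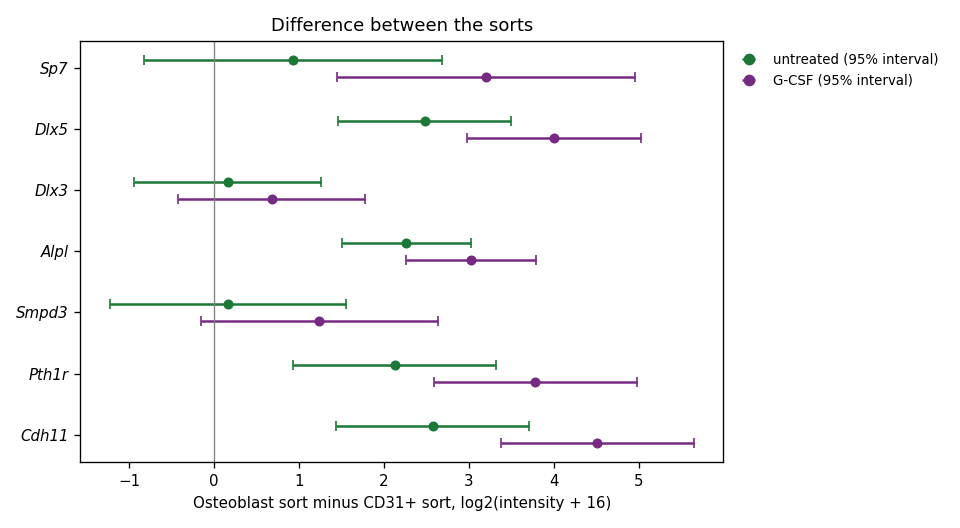
Osteoblast sort minus CD31+ sort for each gene, in log2 of intensity plus 16, untreated and after G-CSF, as estimates with 95% intervals from limma. Dlx5, Alpl, Pth1r and Cdh11 lie above 0 in both conditions, Sp7 lies clear of 0 after G-CSF, and the intervals of Dlx3 and Smpd3 include 0 in both.

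Over the 4 groups, the order of mean signal was the same for Dlx5, Alpl, Pth1r and Cdh11: untreated osteoblasts, G-CSF osteoblasts, untreated CD31+ cells, G-CSF CD31+ cells. In Dlx3 and Smpd3 the untreated CD31+ cells ranked second, ahead of G-CSF osteoblasts. The neighbours that differed by the test were the untreated and G-CSF CD31+ groups for Alpl, Pth1r and Cdh11, and with the block also for Dlx5 and Sp7, and the neighbouring osteoblast groups did not pass it for any of the 7. G-CSF osteoblasts and untreated CD31+ cells differ in both sort and treatment and were not tested against each other.

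Genes of the same pathways were read from fixed lists, and members with no probe set that passed the filter were not analysed here. Among 17 measured osteoblast transcription regulators other than the 4 above, 8 were higher and 2 lower in untreated osteoblasts, where 13.6% of all genes were higher and 12.8% lower. Runx1, a relative of Runx2, was 9.79-fold higher (adjusted p = 1.79e-05, limma), Dlx6, the genomic neighbour of Dlx5, 7.18-fold (0.0003) and Dlx4, the neighbour of Dlx3, 4.03-fold (0.00158), and Twist1, a mesenchymal factor, 3.34-fold (0.0362). With G-CSF 0 of the 17 were called in either sort in the unblocked fit. The largest changes in osteoblasts were -1.18 ± 0.39 for Lef1 and 0.79 ± 0.28 for Fosl2. In CD31+ cells the largest changes were those of Twist1, at -2.08 ± 0.53 (adjusted p = 0.066, and 0.00349 with the block) and Fosl1, an AP-1 subunit, at 1.26 ± 0.38 (0.112). Twist1 was the 1 of the 17 called lower with the block, where 3.87% of all genes were.

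Of 15 other mineralisation genes measured, 4 were higher in untreated osteoblasts (13.6% of all genes were): the phosphate transporter Slc20a2 (6.83-fold), the pyrophosphate transporter Ank (3.09-fold), the secreted kinase Fam20c (2.65-fold) and the nucleotidase Nt5e (2.20-fold). After G-CSF 10 of 15 were higher, where 17.5% of all genes were, with Ibsp, the bone sialoprotein, at 17.3-fold. In CD31+ cells 0 of 15 were called with G-CSF, and 6 were called lower with the replicate block, where 3.87% of all genes were. These were Tmem119 (-2.59, adjusted p = 0.00189), Phex (-2.54, 0.0468), Ibsp (-2.40, 0.00265), Ifitm5 (-2.09, 0.016), Slc20a2 (-0.98, 0.0312) and Sparc (-0.53, 0.0459). Tmem119 and Ifitm5 are membrane proteins of osteoblasts and Phex is a phosphate-regulating peptidase. In osteoblasts 0 of 15 were called in either fit, and the largest changes were 1.14 ± 1.21 for Dmp1 and 1.06 ± 0.50 for Mgp.

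The enzymes around Smpd3 showed 1 call with G-CSF in the unblocked fit, in CD31+ cells, where 0.453% of all genes were called higher. Of 12 that handle sphingomyelin and phosphocholine, Sgms1, a sphingomyelin synthase, rose in CD31+ cells by 1.24 ± 0.27 (adjusted p = 0.0393, limma), the direction opposite to Smpd3. With the block 1 of the 12 was called higher, again Sgms1, and 1 lower, where 1.03% and 3.87% of all genes were. The gene called lower was its paralogue Sgms2, with a change of -1.58 (adjusted p = 0.0206, limma with the block). Between untreated sorts 1 of the 12 was called, the choline kinase Chka, 3.43-fold higher in osteoblasts (13.6% of all genes were higher).

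Downstream of Pth1r, 0 of 17 measured signalling genes were called with G-CSF in either sort, with or without the block. The largest changes were those of Arrb2, an arrestin (1.25 ± 0.54 in osteoblasts and 0.87 ± 0.46 in CD31+ cells), and of Nr4a2, a nuclear receptor induced by the hormone (0.97 ± 0.58 and -0.66 ± 0.51). Between untreated sorts 2 were higher and 3 lower in osteoblasts, against 13.6% and 12.8% of all genes. The arrestin Arrb1 was 4.11-fold lower, Crem, a cAMP-responsive factor, 2.61-fold lower, the phosphodiesterase Pde4b 2.12-fold lower and the kinase subunit Prkar2b 2.55-fold higher.

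Among 10 other cadherins and catenins 0 were called with G-CSF in either sort. In CD31+ cells Cdh2, or N-cadherin, had a change of -2.34 ± 0.72 and Cdh15, or M-cadherin, of -1.05 ± 0.39, and both were called lower with the block (adjusted p = 0.005 and 0.0356; 3.87% of all genes were lower). Untreated osteoblasts were lower in 4 of the 10, where 12.8% of all genes were: Cdh13 (14.1-fold) and Jup (7.21-fold), which are expressed in endothelium, Cdh4 (4.70-fold) and Ctnna1 (1.76-fold).

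The level of bone matrix genes is set beside these genes array by array. The mean of the 7 measured matrix genes lay between 12.72 and 14.35 in untreated CD31+ cells and between 10.39 and 13.37 after G-CSF. In replicate pairs 1 to 4 of the CD31+ sort its change was -0.98, -2.33, -1.58 and -1.03, beside -1.50, -2.09, -2.56 and -1.23 for the mean of the 7 bone genes described here. The mean of 10 endothelial markers changed by 0.13, -0.15, 0.11 and -0.09 in the same pairs. Of the 7 matrix genes 0 were called in CD31+ cells without the block and 4 were called lower with it (1.14% and 3.87% of all genes were lower), and Ibsp, Sparc and Dmp1 are also in the list of mineralisation genes. The part of the matrix genes in the result was not tested.

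**Figure D4:**
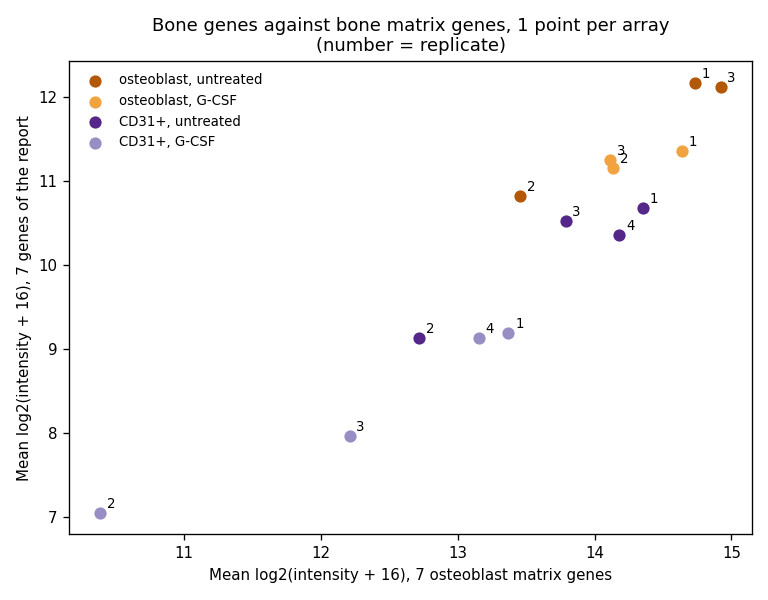
Each point is 1 array, with the mean of 7 osteoblast matrix genes on the x axis and the mean of the 7 measured genes described here on the y axis, both in log2 of intensity plus 16, coloured by group and numbered by replicate. CD31+ replicate 2 is lowest of its group on both axes, untreated and after G-CSF, and untreated osteoblast replicate 2 lies below the other untreated osteoblasts.

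Markers of other cells also differed in the CD31+ sort, beside 1.14% of all genes called lower and 3.87% with the block. The mean of 7 fibroblast and tendon markers lay between 8.79 and 9.35 untreated and between 7.12 and 9.01 after G-CSF, with 1 of 7 called lower (4 with the block). That of 4 erythroid markers lay between 8.50 and 9.997 untreated and between 6.17 and 8.95 after G-CSF, with 1 of 4 called lower (3 with the block). For 4 adipocyte and reticular markers the ranges were 12.29 to 12.73 and 11.09 to 11.43, with 1 of 4 called lower (2 with the block). The 10 neutrophil markers averaged 12.55 to 13.39 untreated and 13.35 to 14.11 after G-CSF, and 0 were called. For 6 B lineage markers the ranges were 7.71 to 9.77 and 6.06 to 7.75, with 0 called (1 lower with the block, Vpreb1), and for 7 skeletal muscle markers 7.90 to 13.86 and 7.15 to 8.82, with 0 called in either fit. For 5 chondrocyte markers the ranges were 7.72 to 11.57 and 6.86 to 10.83, with 0 called (1 lower with the block, Col2a1). For 6 macrophage and osteoclast markers they were 9.31 to 9.98 and 8.56 to 10.17, with 0 called (1 lower with the block, Ctsk). The part of these other cells in the result was not tested.

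Within groups the bone genes varied together. After the group mean was removed, the 21 pairs among the 7 genes had Pearson correlations from 0.19 to 0.94 over the 14 arrays, with a median of 0.74, and Alpl had the lowest values (0.19 with Dlx3, 0.29 with Smpd3). All 7 were below their group mean in CD31+ replicate 2, both untreated and after G-CSF. In osteoblast replicate 2, untreated and after G-CSF, and in G-CSF CD31+ replicate 3, 6 of 7 were. On the other arrays 0 to 4 of the 7 were below their group mean. The arrays share a scale, RNA input and sort, so these correlations are descriptions.

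By the same measure the genes most like each one were picked from all genes tested. They were Tent5a, Cdh2 and Ccn4 for Sp7 (0.97 for each), Itga10, Tbx15 and Arl16 for Dlx5 (0.94 to 0.96), Mmp13, Zeb2 and Rcn1 for Dlx3 (0.91 to 0.93), and Rab34, Gpx3 and Loxl1 for Alpl (0.90 to 0.93). For Pth1r they were Slc41a2, P3h1 and Nkd2 (0.97 to 0.985), for Cdh11 B3gnt9, Fap and Cthrc1 (0.98 for each) and for Smpd3 Kcnk1, Pcsk6 and Lpar3 (0.98 to 0.99). The values are Pearson correlations over 14 arrays with group means removed.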

How the data were processed

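Per the labels, total RNA came from a Trizol extraction and was hybridised as biotin-labelled cRNA. The deposited values are linear intensities, 1 per probe set, made by the authors with Affymetrix Expression Console 1.1 per the submitters' processing notes. How probes were summarised is not given in the sources used here. On every array the trimmed mean was 500, so values were already scaled and were not normalised again. Correlation between arrays ran from 0.847 to 0.972. The number of arrays limits the precision.

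Intensity plus 16 was taken to log2. Probe sets in the dimmest fraction of 0.333 (mean intensity plus 16 below a log2 of 5.78), 64 controls, 932 with several symbols and 9160 with none were left out, and the brightest remaining probe set stood for each of 13453 genes. A model of 4 group means was fitted in limma 3.58.1 (R 4.3.3) with trended moderated variances, and tests were 2-sided. The unblocked fit was also run on simulated data in which arrays varied independently. That run had no replicate pairing, so it does not bear on the blocked calls. Probe sets of a gene tested singly were adjusted over all probe sets. Gene positions and promoter windows are those of RefSeq on GRCm38.p6; the windows held 4 of the 9 genes, of which Alpl and Pth1r were measured.

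Replicate numbers come from the titles, which do not say what they mark. Deviations from group means of same-numbered untreated and G-CSF arrays correlated in osteoblasts (0.223, 0.288 and 0.315) and in CD31+ cells (0.239, 0.377, 0.281 and 0.102), so the numbers were taken to pair the arrays.

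The genes, lists and tests were chosen with earlier results of these data known. The 7 measured genes were described in every comparison. Names from each list were drawn from the up to 4 called members with the largest change, or the 2 largest where none was called, and not all of these are printed; members called only with the block were named after their values were seen. Likeness was the 3 highest Pearson correlations. Alternatives covered the pseudocount, scaling, filter, choice of probe set, arrays fitted, block, variance model, array weights, a batch term and single arrays left out.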

Additional observations from a re-analysis of the deposited data

How the results depend on the processing

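The CD31+ changes of all 7 genes were negative under every alternative in which they were measured (Dlx3 was not under the stricter filter on dim probe sets). Where probe sets were tested singly, each gene was read from its probe set with the smallest p. The dim second Dlx3 probe set had a CD31+ change of 0.32 ± 0.42 there. The count of genes called in CD31+ cells, 3 in the fit reported, moved with the processing. It was 0 after centring each array on its median, 1 with only the arrays compared and 5 with array weights. With the replicate block within each sort or shared by both it was 6, and also 6 with the block and median centring together. Without both arrays that stood apart in their own groups by genes of other cell types it was 0. With the GAPDH ratio as a covariate it was 1. Leaving out single arrays, or a pair in the blocked fit, gave 0 to 6. The GAPDH covariate, replicates 2 and 3 alone, the decimals of the deposited columns as a batch term, and the block joined with median centring or a left-out pair were chosen after seeing the data. Changes near 0 turned sign: Dlx3 between untreated sorts was -0.068 after quantile normalisation and -0.069 after median centring, and -0.22 to 0.75 with 1 array left out; Smpd3 there was -0.069 after median centring and -0.28 to 0.81 with 1 array left out. In osteoblasts the Sp7 change was -0.74 with array weights, -0.87 without both such arrays and -0.87 to 0.48 with 1 array left out, and the Dlx5 change was 0.087 in replicates 2 and 3 alone and -0.66 to 0.083 with 1 array left out. The Dlx3 difference between the changes was -0.28 without both such arrays and -0.072 to 0.90 with 1 array left out. The cause of these moves was not tested. Over all genes, the number called ranged from 28 to 1029 in CD31+ cells (215 reported), from 2 to 475 in osteoblasts (31 reported) and from 0 to 21 for the difference (0 reported). Signals near the dimmest probe sets, as for Dlx3, limit what can be seen.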
